A study of Arabidopsis thaliana with 6 samples.

Results

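Roots of Arabidopsis thaliana that overexpressed RXR1 were compared with wild-type roots. RXR1 (AT3G25240) encodes a protein with a DUF506 domain and is known to restrain the elongation of root hairs. The comparison used 4 of the 6 arrays of the series, chosen by their genotype label: 2 of the RXR1 overexpressor and 2 of wild type. The other 2 arrays, of an rxr1 mutant, entered the fit so that the spread between replicates could be estimated with them too. All roots came from seedlings that were 7 days old and had grown upright on half-strength MS medium. The promoter, the number of transgenic lines, the accession and the number of pooled plants were not given in the sources used here. Nothing in the labels said that replicates were separate plants or plates, so the spread behind every p-value may be only technical.

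Root hairs are tubular outgrowths of single epidermal cells that take up water and nutrients. A hair lengthens at its tip, where new wall and membrane are delivered. The wall there is made extensible by expansins and by enzymes that cut and rejoin xyloglucan, and it is later strengthened by extensins that secreted class III peroxidases can cross-link. Phosphoinositide kinases make the membrane lipids that guide secretion at the tip. Whole roots were measured, so fewer hair cells and less RNA per hair cell cannot be told apart.

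Each probe set of the Affymetrix ATH1 array, a group of short probes against a transcript, gave an RMA signal in intensity units. The table held 22810 probe sets; the tests covered 22746, without the 64 controls. A single gene was listed for 13513 of them, and these stood for 13286 loci once matched. No probe set was listed under the locus of RXR1, so the overexpression was not checked here. Wild-type replicate 2 stood apart from the other arrays. In the authors' deposited table it correlated with the other 5 arrays at 0.9700 to 0.9826, while those 5 correlated among themselves at 0.9938 to 0.9978. The log2 difference between replicates had an SD over probe sets of 0.142 in the overexpressor and 0.269 in wild type. RNA quality was read from control transcripts probed at both ends. For actin the 3' minus 5' log2 difference was 1.21 and 1.11 in the overexpressor, against 1.39 and 1.40 in wild type. That of ubiquitin was 0.00833 and 0.0112 in the overexpressor, against -0.104 and -0.0388 in wild type. That of GAPDH was 0.254 and 0.291 in the overexpressor, against 0.373 and 0.28 in wild type, so its arrays overlapped. The part of RNA quality in the differences below was not tested.

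Overexpression of RXR1 went with lower signals at a small set of probe sets, and no rise passed the test. With limma and Benjamini-Hochberg adjustment, 23 of 22746 probe sets (0.101%) were called at an adjusted p under 0.05, all 23 lower and 0 higher. They were 1.72- to 3.59-fold lower, with a median log2 difference of -1.03. In all 23, both overexpressor arrays lay below both wild-type arrays, as was the case for 19.8% of all probe sets. The test picks large differences with close replicates on these same arrays, so this separation is no added support. Before adjustment 2695 probe sets (11.8%) had a p under 0.05, of which 1475 (6.48%) were lower and 1220 (5.36%) higher. The smallest adjusted p of any higher probe set was 0.0738. The called probe sets were not all bright ones: 9 of the 23 lay below the median signal of all probe sets.

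**Figure D1:**
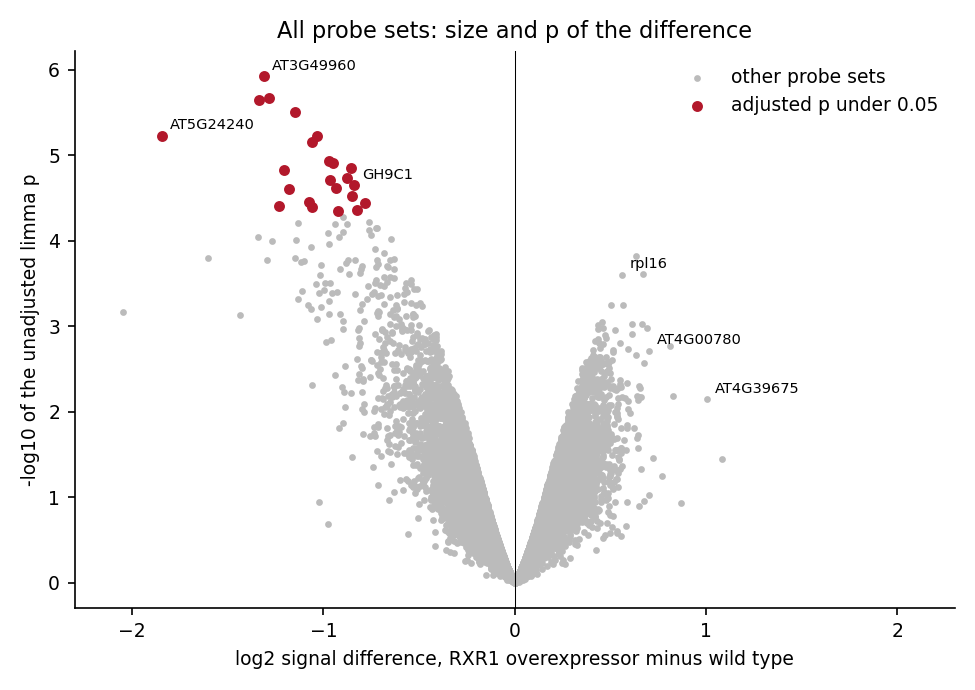
Log2 signal difference (RXR1 overexpressor minus wild type, x axis) against -log10 of the unadjusted limma p (y axis) for 22746 probe sets, with the called ones coloured. All 23 called probe sets sit left of 0, between -1.84 and -0.78.

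Enzymes of the root hair wall were among the called genes. XTH26, a xyloglucan endotransglucosylase/hydrolase of root hairs, had signals of 34.6 and 34.8 in the overexpressor, against 88.5 and 87 in wild type. Replicates of each genotype nearly coincided, and XTH26 fell by 1.34 ± 0.1 in log2 signal (adjusted p = 0.017; here and below ± is the SE, with n = 2 per group). GH9C1, an endoglucanase that acts on the wall of root hairs, had signals of 193 and 198 in the overexpressor, against 337 and 366 in wild type. The groups did not overlap, and GH9C1 fell by 0.84 ± 0.0877 (adjusted p = 0.0357). The expansin gene EXPA7 lay just outside the threshold. Its signals were 192 and 209 in the overexpressor, against 342 and 338 in wild type, a log2 difference of -0.76 ± 0.0921 (adjusted p = 0.0526). The other root hair expansin gene, EXPA18, was at 244 and 285 in the overexpressor, against 415 and 453 in wild type. Its log2 difference was -0.72 ± 0.128 (adjusted p = 0.127). Both expansin genes separated the genotypes on every array but did not pass the test.

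Secreted class III peroxidases use hydrogen peroxide to cross-link wall polymers and can also generate reactive oxygen. AT3G49960, which encodes one of them, had signals of 229 and 223 in the overexpressor, against 539 and 582 in wild type. The lower wild-type array was thus still far above both overexpressor arrays, and AT3G49960 fell by 1.31 ± 0.0895 (adjusted p = 0.017). A second peroxidase gene, AT5G64120, had signals of 167 and 176 in the overexpressor, against 352 and 351 in wild type. It fell by 1.03 ± 0.0888 (adjusted p = 0.0224), with replicates of either genotype close together. Another, AT1G34510, had signals of 134 and 186 in the overexpressor, against 364 and 499.6 in wild type. Its mean difference of -1.43 ± 0.257 was larger, but its replicates were further apart and it was not called (adjusted p = 0.128). AT2G37130, a bright member, was at 1645 and 1586 in the overexpressor, against 2527 and 3167 in wild type (-0.81 ± 0.121, adjusted p = 0.0833).

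The whole peroxidase family did not move as one. Of 74 family members listed by locus, 55 were measured and 2 were called, both lower, beside 0.101% of all probe sets. At an unadjusted p under 0.05, 14 were lower and 2 higher, beside 6.48% and 5.36% of all probe sets. The family's median log2 difference was -0.19, beside 0.0069 over all measured loci. It was -0.11 against wild-type replicate 1 and -0.13 against wild-type replicate 2. AT4G08780 was a member on the other side, at 292 and 273 in the overexpressor, against 224 and 186 in wild type (0.46, adjusted p = 0.228).

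Of 67 members of the wider list of root hair growth and wall genes, 19 (28.4%) were measured under a name, and the list's counts speak only for these. Among them 3 were called, all lower, beside 0.101% of all probe sets: XTH26, AT3G49960 and GH9C1. A further 15 had a negative difference and 1 a positive one. In 14 the arrays did not overlap and the overexpressor was lower, and in 1 it was higher, beside 19.8% and 21.6% of all probe sets. The median was -0.65, with -0.47 against wild-type replicate 1 and -0.72 against wild-type replicate 2. The list was drawn up with earlier results of these arrays known, so its direction is a description.

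Members of that list that were not called covered structural and signalling proteins. HRGP1, a hydroxyproline-rich wall protein, was at 824 and 748 in the overexpressor, against 1163 and 1423 in wild type (-0.71, adjusted p = 0.101). The extensin-type gene AT5G06630 was at 289.6 and 286 in the overexpressor, against 376 and 656 in wild type. Its log2 difference was -0.39 against wild-type replicate 1 and -1.19 against wild-type replicate 2, so its size depended on which array was used. The peroxidase genes AT1G30870 (-0.65, adjusted p = 0.0738) and AT4G26010 (-0.60, adjusted p = 0.196) also separated the genotypes. AT4G08410 (-0.65), AT5G61550 (-0.53), AT3G54580 (-0.37) and AT2G47540 (-0.22) did so as well, with adjusted p from 0.104 to 0.425. The arrays overlapped for AT3G28550 (-0.27), AT5G17820 (-0.19), AT1G23720 (-0.13) and SCN1 (-0.06), a regulator of where hairs emerge. GH9C2, a relative of GH9C1 that the list also held, was the 1 member on the other side. Its signals were 1693 and 1738 in the overexpressor, against 1439 and 1470.2 in wild type (0.24, adjusted p = 0.371). Of 20 root hair transcription factors and epidermal fate genes only 2 were measured, with differences of 0.03 and 0.10.

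**Figure D2:**
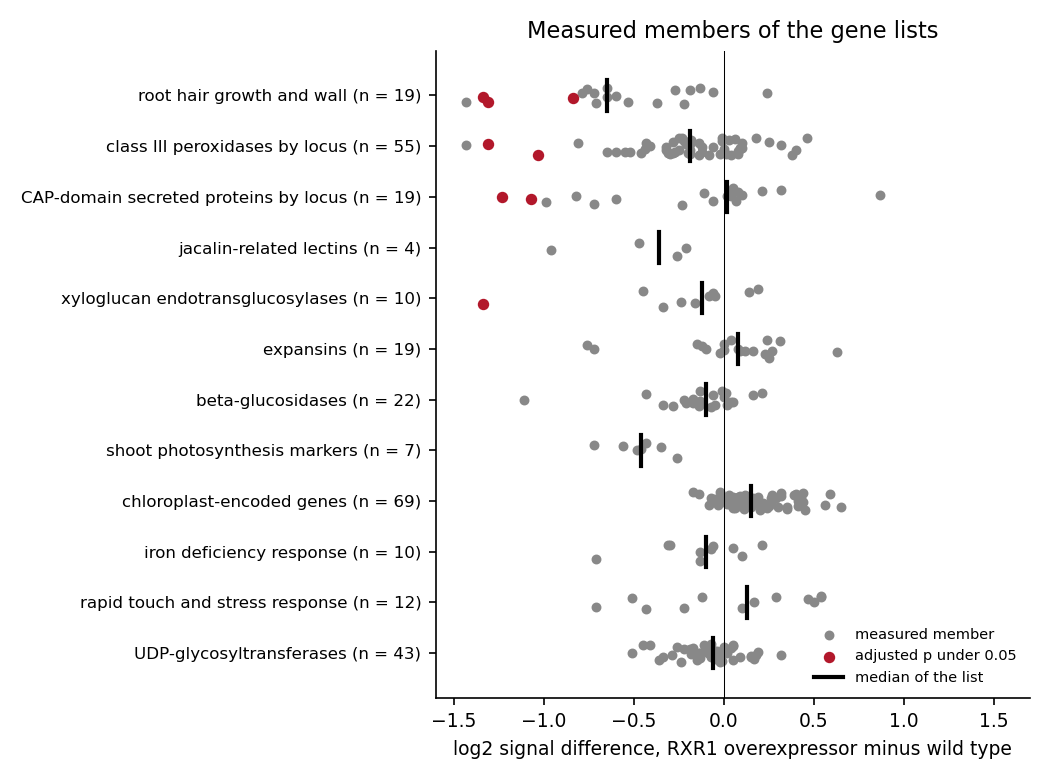
Log2 signal difference (RXR1 overexpressor minus wild type, x axis) of each measured member of 12 gene lists, 1 row per list with its number of measured members. Points are genes, coloured where the adjusted p was under 0.05, and bars mark medians; the root hair list has its median at -0.65 and the chloroplast-encoded genes at 0.15.

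Wall families other than peroxidases held called members or outliers in few genes. Among 10 measured xyloglucan endotransglucosylase genes, XTH26 was the 1 called, beside 0.101% of all probe sets, and the family median was -0.12. XTH33, at 50.8 and 47.7 in the overexpressor against 59.8 and 75.7 in wild type, was next (-0.45, adjusted p = 0.274). Expansins split by member. Of 19 measured, 8 were lower and 11 higher, and 0 were called by limma. At an unadjusted p under 0.05, 2 were lower and 3 higher, beside 6.48% and 5.36% of all probe sets. The median was 0.08. EXPA9 was at 468 and 436 in the overexpressor, against 365 and 234 in wild type (0.63, adjusted p = 0.322), and EXPA15 was at 1634 and 1634 in the overexpressor, against 1388 and 1322 in wild type (0.27, adjusted p = 0.344). The rxr1 mutant differed from wild type by 0.65 at EXPA9 and 0.13 at EXPA15. EXPA7 and EXPA18, the 2 root hair members, had the lowest overexpressor differences of the family.

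The largest fall of a called gene was in AT5G24240, which encodes a phosphatidylinositol 4-kinase gamma-type protein. Its signals were 51.8 and 54.7 in the overexpressor, against 167 and 219 in wild type. AT5G24240 fell by 1.84 ± 0.158 in log2 signal, a 3.59-fold difference (adjusted p = 0.0224). In the rxr1 mutant the same probe set read 57.2 and 71.9, also far below wild type. OCT1, an organic cation transporter, had signals of 91.4 and 88.3 in the overexpressor, against 176 and 174 in wild type. It fell by 0.97 ± 0.0988 (adjusted p = 0.0345), and the mutant arrays, at 232 and 200.1, lay above wild type. In all 23 called probe sets both mutant arrays lay above both overexpressor arrays. The mutant mean was below the wild-type mean in 22 of the 23, and OCT1 was the exception. These mutant values share the wild-type arrays and are given as values only. The 23 were chosen for low overexpressor and high wild-type signals, which by itself favours mutant values between them.

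AT4G25790 and AT4G33730 encode proteins with a CAP domain, the fold of pathogenesis-related protein 1. AT4G25790 had signals of 187 and 203 in the overexpressor, against 400.1 and 527 in wild type, and fell by 1.23 ± 0.14 (adjusted p = 0.0442). AT4G33730 had signals of 131 and 148 in the overexpressor, against 272 and 315 in wild type, and fell by 1.07 ± 0.12 (adjusted p = 0.0439). Both were further below wild-type replicate 2 than below wild-type replicate 1. Relatives in the same family were not called: PR-1-LIKE at -0.99 (adjusted p = 0.0909), AT2G19970 at -0.82 (adjusted p = 0.154) and AT4G30320 at -0.72 (adjusted p = 0.0538). AT4G30320 had signals of 121 and 126 in the overexpressor, against 197 and 210.4 in wild type, with no overlap. The measured family as a whole had no shared direction. Of 22 members, 19 were measured, 9 were lower and 10 higher, and the median of all 19 was 0.02. Without the probe sets below the median signal of all probe sets, the family's median was -0.48, so the value of 0.02 depended on dim members.

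AT2G38870, a protease inhibitor gene of the potato inhibitor I type, had signals of 787 and 703 in the overexpressor, against 1436 and 1482 in wild type. It fell by 0.97 ± 0.0922 (adjusted p = 0.0304). AT1G05340 encodes a small protein with a cysteine-rich transmembrane module. Its signals were 393 and 398 in the overexpressor, against 876 and 777 in wild type, and it fell by 1.06 ± 0.0933 (adjusted p = 0.0228). AT1G19960 had the closest overexpressor replicates, at 119.6 and 119.6, against 298 and 285 in wild type. It fell by 1.29 ± 0.0955 (adjusted p = 0.017). AT1G34330, annotated as a transcribed pseudogene, was dim, at 22.6 and 23.7 in the overexpressor against 42 and 41.5 in wild type. It fell by 0.85 ± 0.0928 (adjusted p = 0.0401), and binding of related transcripts to its probes was not checked.

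The other 11 called probe sets had no single listed gene and are left unnamed. They were lower by between -0.78 and -1.20 on the log2 scale, and none had overlapping arrays. The brightest, 254044_at, had signals of 826 and 925 in the overexpressor, against 1596 and 1753 in wild type (-0.94, adjusted p = 0.0357). The largest difference among them was that of 254534_at, at 52.4 and 56.7 in the overexpressor against 128 and 123 in wild type (-1.20, adjusted p = 0.0304).

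**Figure D3:**
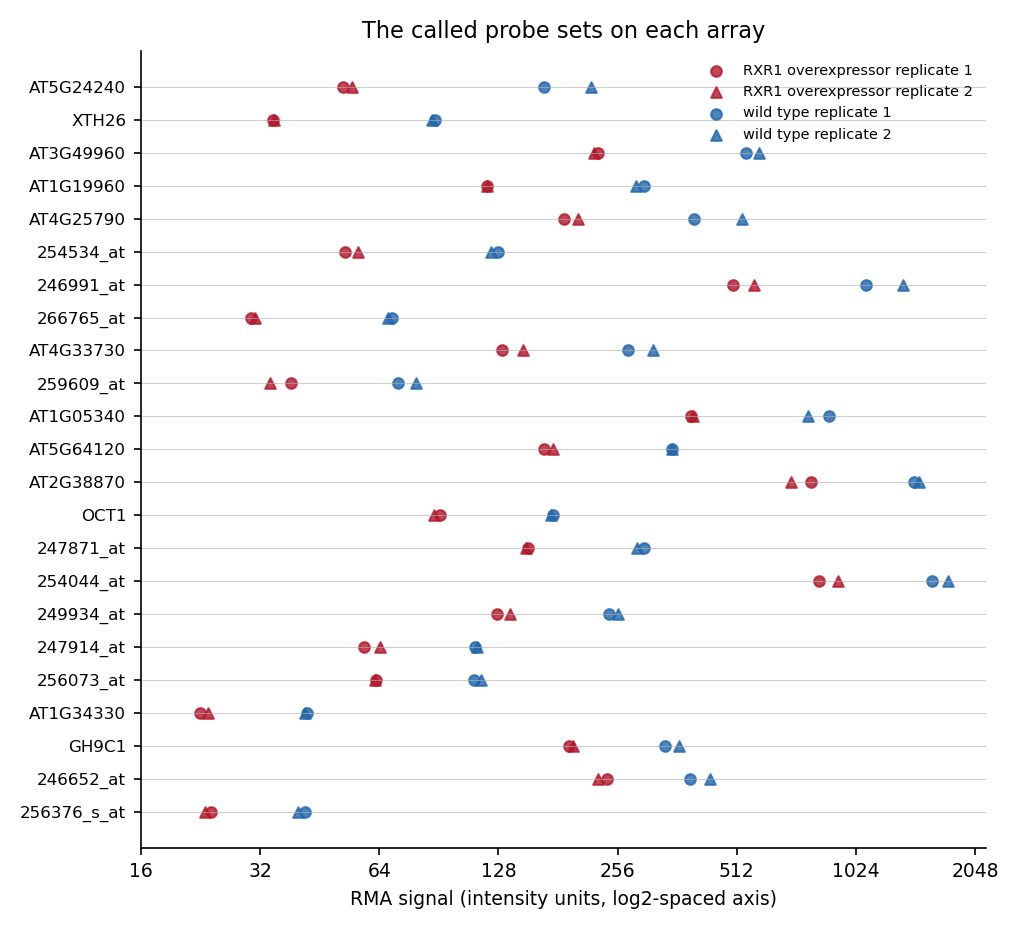
RMA signal (intensity units, x axis, log2-spaced) of the 23 called probe sets on the 2 RXR1 overexpressor and the 2 wild-type arrays, 1 row per probe set. In each row both overexpressor points lie left of both wild-type points, from a gap of 0.70 on the log2 scale to one of 1.61 (AT5G24240).

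The threshold ran through a dense group of falls. At an adjusted p under 0.1 there were 94 lower and 3 higher probe sets. Just outside it were AT3G20460, a sugar transporter gene (-0.90), EXPA7, and FDH, which encodes formate dehydrogenase. FDH had signals of 172 and 183 in the overexpressor, against 309 and 345 in wild type (-0.88 ± 0.107, adjusted p = 0.0526). The largest mean difference of all, -2.05 at the unnamed 254805_at, was not called (adjusted p = 0.125). Its replicates were far apart, at 90.8 and 40 in the overexpressor, against 199.8 and 311 in wild type. Several named genes also had larger mean differences but wider replicates. AT1G52820, of the 2-oxoglutarate-dependent oxygenases, was at 105 and 100.4 in the overexpressor, against 232 and 294 in wild type (-1.34, adjusted p = 0.0577). BGLU45, a beta-glucosidase that acts on lignin precursors, was at 51.5 and 45.7 in the overexpressor, against 91.5 and 120.4 in wild type (-1.11, adjusted p = 0.098). AT2G16005, with a lipid-recognition domain, was at 375 and 369 in the overexpressor, against 716 and 862 in wild type (-1.08, adjusted p = 0.114). In each of the 3 the overexpressor replicates were close and the wild-type replicates differed. AT3G29410 of the terpene synthase family (-1.04, adjusted p = 0.0909), AT1G65490 (-1.03, adjusted p = 0.136) and scpl28, a serine carboxypeptidase-like gene (-1.02, adjusted p = 0.0993), followed.

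Higher signals were smaller in size and none was called. Among named genes without overlap and with an unadjusted p under 0.01, AT4G39675 led. Its signals were 1001 and 1168 in the overexpressor, against 427 and 680.0 in wild type (1.01 ± 0.272, adjusted p = 0.265). The difference was 1.34 against wild-type replicate 1 and 0.67 against wild-type replicate 2. AT4G00780, of the TRAF-like family, was at 169.7 and 179.8 in the overexpressor, against 126 and 91.5 in wild type (0.70 ± 0.148, adjusted p = 0.19). AT2G43610, of the chitinase family, was at 1062 and 1096 in the overexpressor, against 839 and 556 in wild type (0.66 ± 0.176, adjusted p = 0.258). The 15 genes that led this direction ran from 0.53 to 1.01. Wild-type replicate 2 was the lowest array for all but 4 of them. Those 4, with wild-type replicate 1 lowest, were AT4G39675 and 3 chloroplast-encoded genes. The chloroplast-encoded ones were accD, a subunit of acetyl-CoA carboxylase (0.65, adjusted p = 0.246), rpoC1, a subunit of the plastid RNA polymerase (0.59, adjusted p = 0.277), and rpl16, a plastid ribosomal protein. The signals of rpl16 were 354 and 351 in the overexpressor, against 233 and 245 in wild type, and it came closest to the threshold of these 15 (0.56 ± 0.0842, adjusted p = 0.0833). The rxr1 mutant was also above wild type at accD, rpoC1 and rpl16, by 0.41, 0.53 and 0.59 in mean log2 signal. These rises were therefore not particular to the overexpressor.

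Sizes leaned the same way as the calls. On the mean of 2 arrays, 268 probe sets were at least 1.5-fold lower and 37 at least 1.5-fold higher. When each overexpressor array had to differ by 1.5-fold from each wild-type array, 87 probe sets (0.382%) were lower and 1 (0.0044%) was higher. The higher one, 256356_s_at, had signals of 248 and 229 in the overexpressor, against 149.8 and 121 in wild type. Single genes were listed for 44 of the 87. Past 2-fold in all 4 pairs of arrays there were 9 lower and 0 higher. Over all probe sets the median log2 difference was 0.0057; RMA brings the arrays to a common distribution, so a shift of all signals cannot be read from these values. The root hair list held 5 of its 19 measured members among the 87, the peroxidases 4 of 55 and the CAP-domain genes 4 of 19; the first 2 lists share members.

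**Figure D4:**
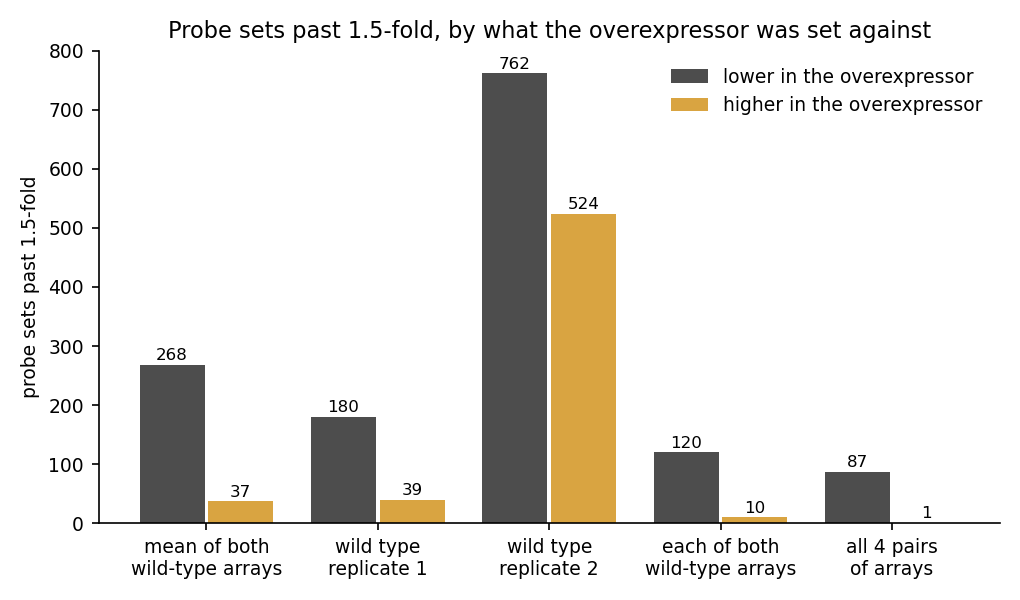
Number of probe sets (y axis) at least 1.5-fold lower or higher in the RXR1 overexpressor, by the wild-type signal it was set against (x axis). Against wild-type replicate 2 alone there were 762 lower and 524 higher; with all 4 pairs of arrays past 1.5-fold there were 87 and 1.

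Setting the overexpressor against each wild-type array alone gave very different numbers of calls. Against wild-type replicate 1, 36 probe sets (0.158%) were called, 36 lower and 0 higher. Against wild-type replicate 2, 3790 (16.7%) were called, 1804 lower (7.93%) and 1986 higher (8.73%). In these fits the lone wild-type array was assumed to vary like the other genotypes. Of the 23 probe sets, 21 were called against replicate 1 and 23 against replicate 2, and the 2 that were not, 259609_at and 249934_at, had an adjusted p of 0.0501. Their differences ran from -0.74 to -1.65 against replicate 1 and from -0.75 to -2.04 against replicate 2. Called against both were 29 probe sets, all lower, 21 of them among the 23. Over all probe sets the sign of the difference was opposite against the 2 wild-type arrays for 8908 (39.2%).

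Single wild-type arrays decided some large differences. AT1G26390, a berberine bridge enzyme-like oxidase gene, was at 11.4 and 12.1 in the overexpressor, against 50.1 and 11.4 in wild type. AT1G09310 was at 21.2 and 24.6 in the overexpressor, against 113 and 17.9 in wild type. Both were called against wild-type replicate 1 alone (adjusted p = 0.00782 and 0.0112), and neither was low against replicate 2, with differences of 0.05 and 0.35. In the other direction AT1G50060, a CAP-domain gene, was at 172 and 217 in the overexpressor, against 197 and 57.1 in wild type. AT5G54370 was at 756 and 1123 in the overexpressor, against 1034 and 368 in wild type. Here wild-type replicate 2 was the low array, and the differences against it were 1.76 and 1.32, beside -0.03 and -0.17 against replicate 1. The jacalin-type lectin genes AT1G52050 and AT1G52060 had the same shape, with 0.91 and 1.10 against replicate 2 and -0.38 and -0.10 against replicate 1. Their overexpressor replicates also differed, at 194 and 477 for AT1G52050 and 464 and 864 for AT1G52060.

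**Figure D5:**
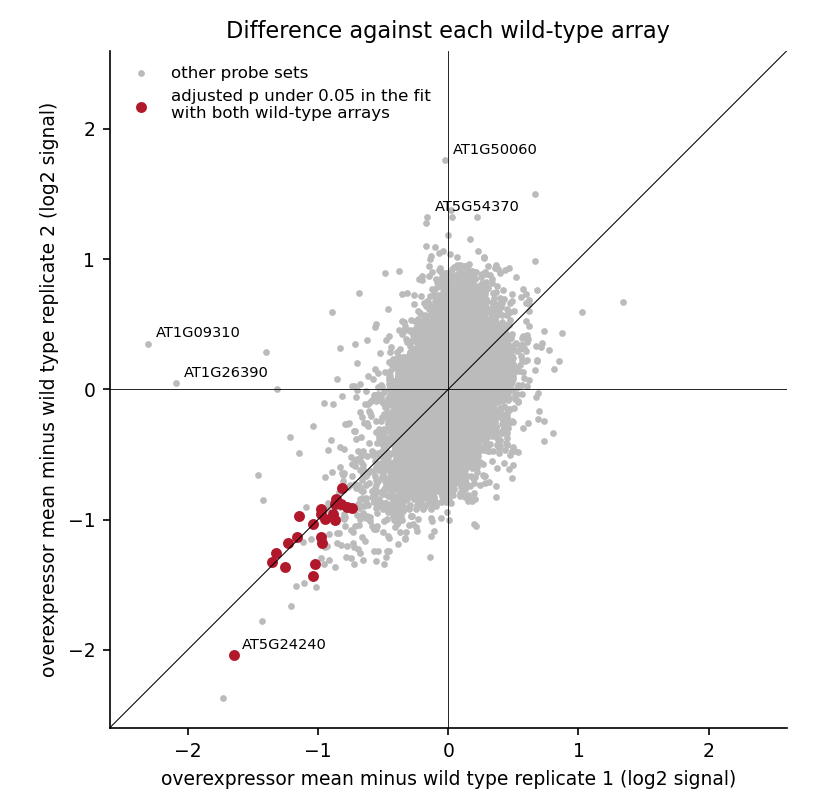
Difference of the RXR1 overexpressor mean from wild-type replicate 1 (x axis) and from wild-type replicate 2 (y axis), both in log2 signal, for every probe set, with the line of equality. The 23 called probe sets lie in the lower left against either array; AT1G09310 is low only against replicate 1 and AT1G50060 high only against replicate 2.

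Shoot photosynthesis markers and chloroplast-encoded genes had medians of opposite sign, with 0 called by limma in either list. All 7 measured of 43 shoot photosynthesis markers were lower without overlap, beside 19.8% of all probe sets. At an unadjusted p under 0.05, 6 of them were lower, beside 6.48% of all probe sets, and their median was -0.46. Their summed signal was 1226 and 1170.3 in the overexpressor, against 1674 and 1641 in wild type, and none was at 0. PSAN, a photosystem I subunit, was at 132 and 126 in the overexpressor, against 224 and 201 in wild type (-0.72 ± 0.112, adjusted p = 0.0895). RCA, Rubisco activase, was at 383 and 365 in the overexpressor, against 489.8 and 537 in wild type (-0.46, adjusted p = 0.211). The rxr1 mutant mean was also below the wild-type mean at all 7 markers. Its log2 differences ran from -0.40 at PSBY to -0.18 at LHCB4.1 and LHCB4.2, with -0.24 at both PSAN and RCA. These falls were therefore not particular to the overexpressor. Of 85 chloroplast-encoded genes 69 were measured, 59 with a positive and 10 with a negative difference. Over all probe sets 48.4% were lower. Before adjustment 19 of the positive and 0 of the negative ones had a p under 0.05, beside 5.36% and 6.48% of all probe sets. Of the 5 with the smallest p, rpl16, rpl36, rps2 and rpl22 encode plastid ribosomal proteins and psaB (0.41) a photosystem I subunit. The rxr1 mutant was above wild type at all 5 as well. Its log2 differences were 0.59 at rpl16, 0.44 at rpl36, 0.23 at rps2, 0.39 at rpl22 and 0.18 at psaB. Some photosynthesis genes were near 0 in the overexpressor, such as rbcL (0.08) and psaA (-0.03). The median of the chloroplast-encoded genes was 0.15, with 0.22 against wild-type replicate 1 and 0.10 against replicate 2. Their summed signal was 29945 and 26595 in the overexpressor, against 23751 and 26241 in wild type, so replicates spread widely. The part of green tissue in the called falls was not tested.

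Markers of other root tissues were sparse. All 3 cortex markers were measured, with 0 called by limma and 0 at an unadjusted p under 0.05; their differences were from 0.09 to 0.26, and none was at 0. Of 10 endodermis markers 2 were measured, of 17 xylem markers 1 and of 21 markers of dividing cells 1. No root cap, phloem or suberin marker was measured under a name, so these tissues were not analysed here.

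The calls rest on few arrays. With 2 arrays a side, the smallest p of an exact permutation test is 0.333, and the model borrowed its spread from all 6 arrays and all probe sets. Without either mutant array, or without both, limma called 0 probe sets, and without both 1978 had an unadjusted p under 0.05. It called 0 also without overexpressor replicate 1 (1097 at an unadjusted p under 0.05) or replicate 2 (1349). All 23 differences stayed negative in each of these fits, but they could not have done otherwise. The mutant arrays do not enter the difference, and with no overlap the loss of 1 overexpressor array cannot change its sign.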

How the data were processed

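The deposited signals are linear intensity values that the authors made with RMA and Affymetrix Expression Console per the submitters' processing notes; versions were not given in the sources used here. Another deposited table gave a correlation score per pair of arrays, by the authors. The planned test assumed log2 signal, so log2 was taken, with no pseudocount. Another deposited copy differed from the signals by no more than 5e-06. Detection calls were not used here. Precision is limited by how few arrays there are.

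The test was limma (version 3.58.1, under R 4.3.3): lmFit and eBayes on all 6 arrays, two-sided, with a mean for each genotype, with 3 residual degrees of freedom and 4.25 prior ones, and Benjamini-Hochberg adjustment over 22746 probe sets. The fit was tested on simulated data.

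Groups came from the titles. Probe sets were named from GEO's platform annotation with symbols from a RefSeq gene table; 503 probe sets listed several genes and 8730 none. The brightest probe set stood for a locus. Named were every called probe set with a single listed gene, and list members with the smallest p. Of the 15 largest named differences per direction, at an unadjusted p under 0.01 without overlap, not all were named. The comparison, 57 gene lists and 9 added lists were chosen with earlier results of these data known; 22 and 8 of them had at least 4 measured members, and lists received no test. Clone names were ignored in matching descriptions.

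Alternatives were other normalizations, a filter on dim probe sets, an intensity trend, array weights, only the 4 arrays compared, a replicate block, and leaving out each array. Same-numbered arrays deviated together with correlations of 0.0533 (overexpressor and wild type), 0.125 (overexpressor and mutant) and 0.316 (mutant and wild type), so the numbers were not taken as pairs.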

Additional observations from a re-analysis of the deposited data

How the results depend on the processing

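Of the 23 calls, all kept their direction in every fit that tested them. Where an array was left out this was fixed in advance, because none of the 23 had overlapping arrays. The count of called probe sets was 22 after centring each array on its median and 25 after quantile normalization. It was 6 without the probe sets below the median signal, where 14 of the 23 were still tested, and 12 with array weights. With an intensity trend it was 38, and with only the 4 arrays compared it was 0. Leaving out 1 array at a time gave 0 to 3790. Without either mutant array or either overexpressor array the count was 0, and without wild-type replicate 1 it was 3790. Without wild-type replicate 2 it was 36. The adjusted p of the 23 ran from 0.0674 to 0.16 with only the 4 arrays compared and from 0.344 to 0.538 without an overexpressor array. A fit with the replicate number as a block called 167, 161 lower and 6 higher, and held all 23. The labels do not say whether same-numbered arrays belong together, so pairing is unknown and this fit was not the main one. The median of the root hair list stayed between -0.72 and -0.47 when 1 array was left out. That of the touch and stress list ran from -0.24 to 0.39, so 1 array decides its sign. Arrays without detection calls set no floor for dim probe sets such as AT1G34330. The causes of these changes were not tested.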

Other observations

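No jacalin-related lectin, beta-glucosidase, NPF transporter, UDP-glycosyltransferase or serine carboxypeptidase-like gene was called by limma. The list of jacalin-related lectins, matched by name, had 4 of 7 members measured, JAL22, JAL23, JAL33 and JAL34. These 4 were lower without overlap, beside 19.8% of all probe sets, and 3 had an unadjusted p under 0.05, beside 6.48%. Their median was -0.36. The list did not hold AT1G52050 and AT1G52060, genes of the same family, whose mean differences were 0.26 and 0.50. JAL22 was at 981 and 836 in the overexpressor, against 1504 and 2053 in wild type (-0.96, adjusted p = 0.0993). Of 22 measured beta-glucosidases 16 were lower, beside 48.4% of all probe sets, and 4 were lower at an unadjusted p under 0.05, beside 6.48%. Their median was -0.10, and BGLU45 was the lowest. Of 11 measured NPF transporters 9 were lower, 2 of them at an unadjusted p under 0.05, beside the same shares of all probe sets. Their median was -0.15. GTR1, a glucosinolate transporter, was at 186 and 192 in the overexpressor, against 258 and 267 in wild type (-0.47, adjusted p = 0.171). The UDP-glycosyltransferases had 43 measured members, 5 lower at an unadjusted p under 0.05, beside 6.48% of all probe sets, and a median of -0.06. The serine carboxypeptidase-like proteins had 29, with 2 lower at that p, beside the same 6.48%, and a median of -0.03.

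Of 6 measured genes of the abscisic acid and dehydration list, 3 were lower at an unadjusted p under 0.05, beside 6.48% of all probe sets, and 0 were called by limma. The list's median was -0.24. LEA4-5, a dehydration protein, was at 55.8 and 56.7 in the overexpressor, against 99.3 and 88 in wild type (-0.73 ± 0.114, adjusted p = 0.0909). COR47 was at -0.43 (adjusted p = 0.24) and LTI30 at -0.44 (adjusted p = 0.344), both without overlap. The rxr1 mutant was also below wild type at LEA4-5 (-0.26), COR47 (-0.28) and LTI30 (-0.48). The dim COR15A and COR15B were at -0.06 and -0.02, and AT3G15670 was at 0.09. BHLH101, an iron deficiency transcription factor, was at 48.8 and 53.6 in the overexpressor, against 72.5 and 96.5 in wild type (-0.71, adjusted p = 0.228). The rxr1 mutant differed from wild type by -0.63 at BHLH101. The iron list had a median of -0.10. Of 12 measured touch and stress genes 5 were lower and 7 higher. CML38, a calmodulin-like protein, was at 46.3 and 85.4 in the overexpressor, against 41.2 and 48.1 in wild type, so its overexpressor arrays differed more than its wild-type arrays. The 6 measured DUF506 genes, the family of RXR1, had a median of -0.29, but -0.12 against wild-type replicate 1. Their smallest unadjusted limma p was 0.0559. In the rxr1 mutant all 6 were below wild type as well, from -0.04 at AT1G12030 to -0.53 at AT2G39650. Lower DUF506 signals were therefore not particular to the overexpressor.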
